A study of Mus musculus with 5 samples.

Results

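The heterotrimeric G protein and RGS genes were taken as every gene of the count table whose GRCm38 symbol names a Gα subunit of the Gi/o, Gq/11, G12/13 or olfactory type, a Gβ subunit, a Gγ subunit or a numbered RGS protein. This rule found 53 of 47729 genes, with 15 Gα, 5 Gβ, 12 Gγ and 21 RGS genes. Gnas, the stimulatory Gα gene, was not named by the rule and was used only as a partner of Gnal. The study sequenced mRNA of the brain, right hemisphere, from C57BL/6 mice, an inbred strain, all male and 5 months of age, with no treatment or genotype given. It holds 1 group of 5 libraries, so no treatment or age was compared. The labels do not say that each library came from a different mouse, so a p-value here speaks of differences among these libraries, and such differences may be technical. Libraries are numbered 1 to 5 as names with no order.

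Heterotrimeric G proteins carry signals from seven-helix receptors. An active receptor makes the Gα subunit exchange GDP for GTP, Gα then separates from the Gβγ dimer, and both act on enzymes and channels until Gα hydrolyses its GTP. RGS proteins speed that hydrolysis and so shorten the signal. In brain, Gi/o proteins serve the inhibitory receptors for dopamine, opioids, GABA and endocannabinoids, Gq/11 proteins drive phospholipase C, G12/13 proteins act on the cytoskeleton, and the olfactory Gα encoded by Gnal stimulates adenylyl cyclase in the striatum.

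The ends of the coding sequences are shown because they separate subunits by what reaches the membrane or a toxin. In Gα, a cysteine in the fourth codon from the end is known as the site that pertussis toxin modifies. The last 33 coding bases of 5 Gα genes, the stop codon included, were read from GENCODE M21 coding annotation on GRCm38 for Gnao1 at chr8:93967023-93967055 (+), Gnai1 at chr5:18267019-18267051 (-), Gnaz at chr10:75015180-75015212 (+), Gnaq at chr19:16383362-16383394 (+), Gna12 at chr5:140760549-140760581 (-), each given 5′ to 3′ on the coding strand. Capitals mark the fourth codon from the end, not counting the stop codon.
Gnao1: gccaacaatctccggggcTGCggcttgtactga
Gnai1: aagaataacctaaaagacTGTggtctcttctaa
Gnaz: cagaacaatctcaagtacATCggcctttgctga
Gnaq: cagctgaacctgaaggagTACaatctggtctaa
Gna12: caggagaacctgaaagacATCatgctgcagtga
The codon was a cysteine codon in Gnao1 and Gnai1 and an isoleucine codon in Gnaz and Gna12, while Gnaq had a tyrosine codon. Over all 15 Gα genes, 7 had a cysteine codon there, namely Gnai1, Gnai2, Gnai3, Gnao1, Gnat1, Gnat2 and Gnat3. Gnao1 had more than 1 annotated end, and each carried a cysteine codon.

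In Gγ, the fourth residue from the end is a cysteine that receives a lipid, and the last residue sets which lipid, geranylgeranyl with leucine and farnesyl with serine. The same stretch is shown for 4 Gγ genes, Gng3 at chr19:8838143-8838175 (-), Gng7 at chr10:80951621-80951653 (-), Gng11 at chr6:4008128-4008160 (+), Gngt2 at chr11:95845576-95845608 (+), with capitals on the cysteine codon and on the last codon.
Gng3: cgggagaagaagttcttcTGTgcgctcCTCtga
Gng7: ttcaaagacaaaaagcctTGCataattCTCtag
Gng11: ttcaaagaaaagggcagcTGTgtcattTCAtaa
Gngt2: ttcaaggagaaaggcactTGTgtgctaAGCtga
Gng3 and Gng7 ended in a leucine codon, and Gng11 and Gngt2 in a serine codon. Of the 12 Gγ genes, 9 ended in leucine and 3 in serine, the third serine gene being Gngt1.

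Levels are given as RPKM, the read count scaled by gene length and by the library's total count. The libraries held 13184234 to 15570064 counts. Library 4 stood apart in cerebellar markers: the granule cell gene Gabra6 had 1.65 RPKM there and 0 to 0.03 RPKM in the others, and Cbln1, Cbln3, Car8, Pcp2 and Barhl1 were also highest there, while Itpr1, the other gene of that list, was lowest. Of the 53 genes, 35 reached a mean of 5 RPKM, 6 lay between 1 and 5 RPKM, and 12 lay under 1 RPKM. Only 4 exceeded 100 RPKM, 1 in each class: Gnao1, Gnb1, Gng3 and Rgs4. Gnat3, Gngt1 and Rgs21 had 0 counts in all 5 libraries, which allows up to 3 counts of 71221584 or 0.0421 CPM, for counting error only. These 3 genes are known from taste cells or rods.

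**Figure D1:**
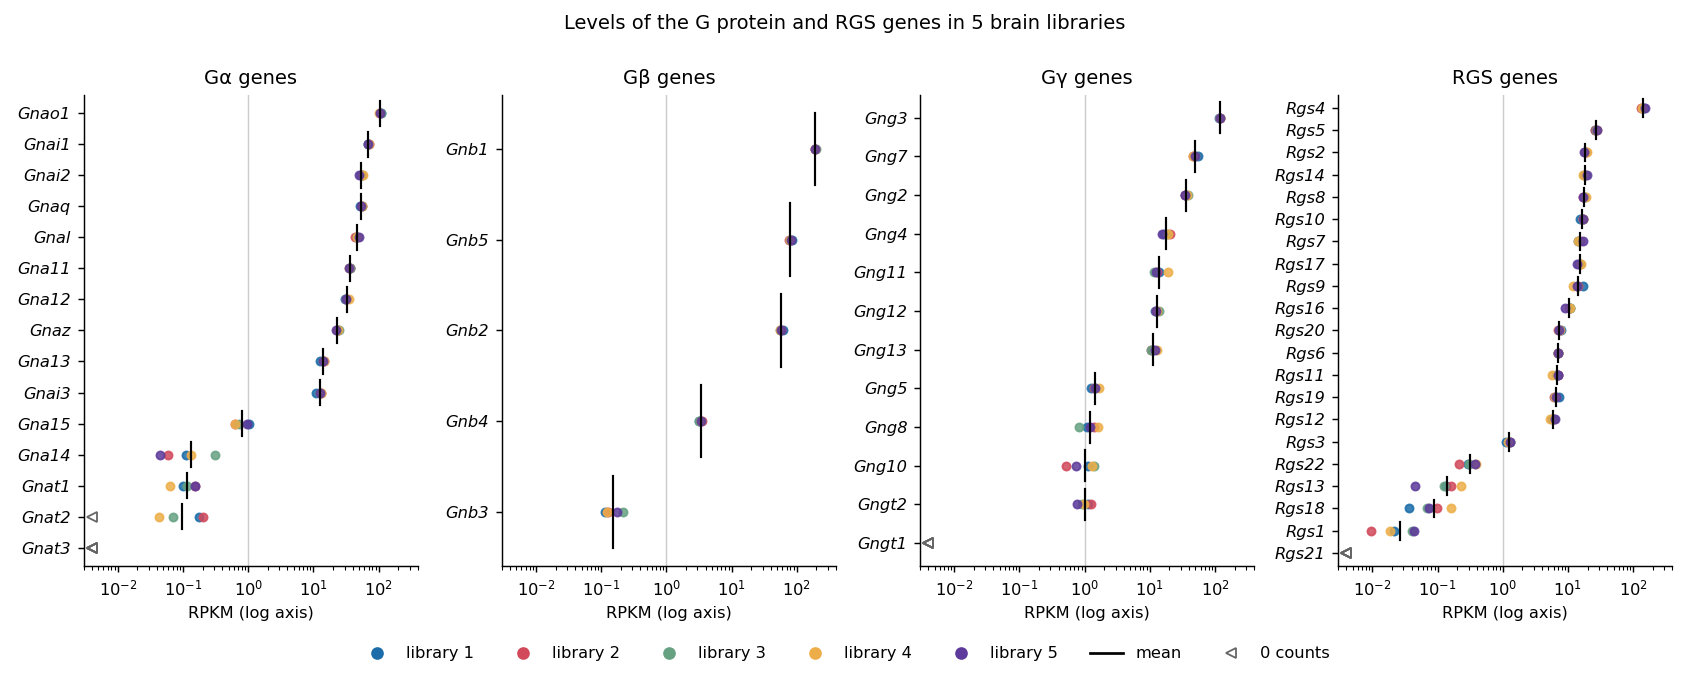
RPKM (log axis) of each gene in each of the 5 libraries, by class, with genes ordered by mean. Coloured points are libraries, black bars are means, and open triangles at the left mark libraries with 0 counts. Gnb1, Rgs4, Gng3 and Gnao1 lie at 106 to 193 RPKM, and the genes at the foot of each panel lie under 1 RPKM.

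Among the Gα genes, Gnao1 was the most abundant. It encodes Gαo, the main Gα of neuronal growth cones and synapses, and had 108, 106, 107, 103 and 104 RPKM in libraries 1 to 5, a mean of 106 ± 2.18 RPKM (SD, n = 5). Gnai1 had 67.6, 71.8, 69.3, 70.0 and 69.6 RPKM. Gnai2 had 53.6, 55.4, 54.7, 57.3 and 50.7 RPKM. The order Gnao1, Gnai1, Gnai2 held in every library. The third inhibitory gene, Gnai3, averaged 12.5 ± 0.838 RPKM (SD, n = 5), and Gnaz, whose product resists pertussis toxin, averaged 23.4 ± 0.858 RPKM. The Gi/o family made up 59.1% ± 0.480 of the summed Gα RPKM (SD, n = 5).

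The Gq/11 family made up 20.3% ± 0.164 of the Gα sum. Gnaq averaged 54.2 ± 1.74 RPKM and Gna11 36.1 ± 0.717 RPKM (SD, n = 5 each), and both activate phospholipase C. Their paralogs Gna15, known from blood cells, and Gna14 averaged 0.793 ± 0.183 and 0.132 ± 0.107 RPKM. Gnal averaged 46.6 ± 1.91 RPKM and 10.4% ± 0.517 of the Gα sum. Gna12 averaged 32.3 ± 1.39 RPKM and Gna13 13.9 ± 0.848 RPKM, together 10.3% ± 0.375 of the sum. The genes of rod and cone phototransduction, Gnat1 and Gnat2, averaged 0.117 ± 0.0380 and 0.0981 ± 0.0868 RPKM. Genes with a cysteine codon at the pertussis toxin position made up 53.9% ± 0.456 of the Gα sum.

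The gene length used matters for a few of these levels. The deposited RPKM values rest on a gene length that can be recovered from them, and for Gnao1 it was 6785 bases, against 11053 bases for the union of its GENCODE M21 exons. With the exon union Gnao1 was at 64.9 RPKM and 16.8% of the Gα sum, below Gnai1 in all 5 libraries. Gnal was likewise at 24.1 RPKM, below Gna11 in all 5 libraries. The share of genes with the cysteine codon was then 52.2%.

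Gnb1, the most widely used Gβ, was the most abundant of all 53 genes, with 193, 193, 198, 192 and 189 RPKM. Gnb5 had 84.9, 76.6, 79.8, 77.6 and 81.3 RPKM. Gnb2 had 62.3, 58.1, 55.2, 56.1 and 57.1 RPKM. The order Gnb1, Gnb5, Gnb2 held in every library. Gnb4 averaged 3.36 ± 0.152 RPKM (SD, n = 5), and Gnb3, known from cones and taste cells, averaged 0.150 ± 0.0425 RPKM. Gnb1 took 57.7% ± 1.05 of the summed Gβ RPKM. Gnb5 stands apart in function, since its product pairs with RGS proteins of the R7 subfamily, and its level depends on the length: with 3115 exon union bases in place of 1188 it was 30.5 RPKM, below Gnb2 in all 5 libraries, and the Gnb1 share was 67.8%.

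Of the Gγ genes, Gng3, a neuronal subunit, led with 115, 120, 121, 117 and 117 RPKM, 44.8% ± 1.02 of the Gγ sum. Gng7, which assembles with the olfactory Gα in the striatum, had 54.0, 46.7, 48.9, 46.4 and 49.4 RPKM. Gng2 had 34.6, 34.97, 38.3, 36.9 and 34.4 RPKM. These 3 genes kept their order in every library. Gng4, Gng11, Gng12 and Gng13 followed at 17.9 ± 1.89, 14.1 ± 3.04, 12.7 ± 0.602 and 11.4 ± 1.04 RPKM (SD, n = 5 each). Gng5, Gng8, Gng10 and Gngt2 averaged 1.43, 1.23, 1.02 and 1.01 RPKM. Genes ending in a leucine codon, as Gng3 and Gng7 do above, made up 94.3% ± 1.08 of the Gγ sum, and those ending in serine 5.71% ± 1.08, with Gng11 alone at 5.33%.

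The Gγ levels carry the limits of short genes. Counting by strand is not given in the sources used here. In GENCODE M21, 51.6% of the exon bases of Gng13 lay opposite exons of Chtf18 and 24.2% of those of Gng3 opposite Bscl2. For Gng2, 20.4% lay opposite Gm48283, and for Gngt2 12.5% opposite Abi3. Of the exon bases of Gng10, 72% were shared on the same strand with Gm20503. Reads of these partners cannot be told apart by the counts. Of the 50-base stretches sampled from Gng5 transcripts, 12.1% also occurred in transcripts of 6 other genes. How multiply mapped reads were treated is not given, so the Gng5 level carries that limit.

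**Figure D2:**
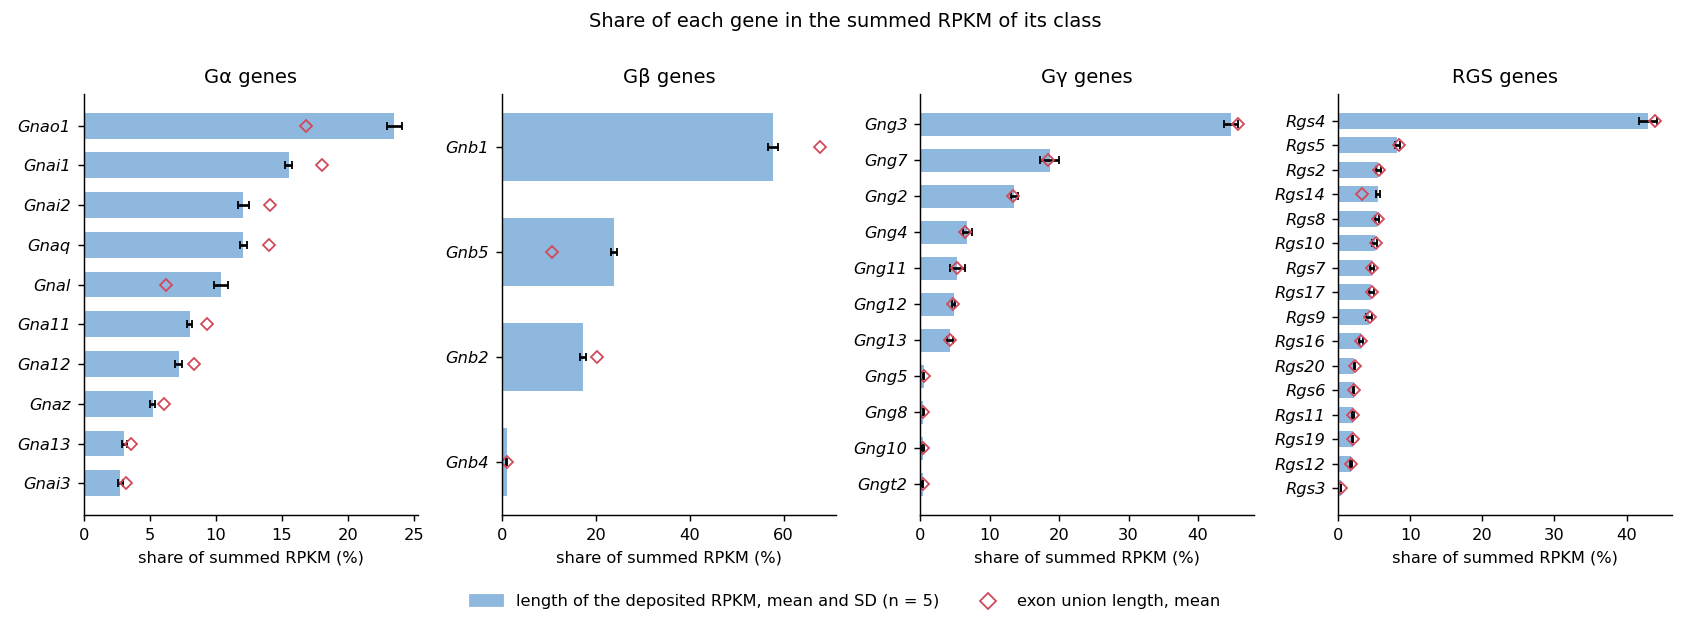
Share of each gene (%) in the summed RPKM of its class within a library, for genes of at least 0.3% of the sum. Bars and whiskers are the mean and SD over 5 libraries with the gene lengths of the deposited RPKM, and open diamonds are the means with exon union lengths. Gnb1 takes 57.7% of the Gβ sum, and the diamonds leave the bars most for Gnao1, Gnal, Gnb1 and Gnb5.

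Among the RGS genes, Rgs4, an R4 subfamily protein of cortical neurons that acts on Gi/o and Gq, stood far above the rest with 148, 134, 141, 135 and 149 RPKM. Rgs5, known from pericytes, had 25.6, 26.4, 26.8, 27.9 and 27.6 RPKM. Rgs2, which prefers Gq, had 17.9, 18.7, 18.02, 19.3 and 17.3 RPKM. Rgs4 made up 42.9% ± 1.21 of the summed RGS RPKM (SD, n = 5), and the 10 genes of the R4 subfamily 65.7% ± 0.572. Rgs8 and Rgs16 of the same subfamily averaged 17.8 ± 0.788 and 10.3 ± 0.730 RPKM. Rgs8, known from Purkinje cells, had 17.9, 17.1, 18.5, 18.6 and 16.9 RPKM in libraries 1 to 5. The Purkinje marker Pcp2 had 0.878 RPKM in library 4 and 0.0735 to 0.166 RPKM in the others, while Car8 and Itpr1, also known from Purkinje cells, averaged 2.66 and 49.1 RPKM. Rgs3 averaged 1.25 RPKM, with 16.6% of the 50-base stretches sampled from its transcripts also found in Gm5763.

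The R7 subfamily, whose members are stabilised by Gβ5, made up 13.1% ± 0.565 of the RGS sum. Rgs7, Rgs9, Rgs6 and Rgs11 averaged 15.2 ± 1.11, 14.0 ± 1.7, 7.01 ± 0.0660 and 6.71 ± 0.578 RPKM (SD, n = 5 each), a sum of 43.0 ± 2.42 RPKM. Their partner Gnb5 averaged 80.0 ± 3.29 RPKM and their membrane anchor Rgs7bp 60.5 ± 3.11 RPKM. With exon union lengths the sum was still 43.0 RPKM, while Gnb5 was 30.5 RPKM and Rgs7bp 49.8 RPKM, so the order of Gnb5 and its partners turns with the length used. Gpr158, an orphan receptor that binds Rgs7, averaged 26.8 ± 1.5 RPKM. The photoreceptor anchor Rgs9bp averaged 0.0581 RPKM.

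Of the R12 subfamily, Rgs14, known from hippocampal area CA2, averaged 18.1 ± 0.919 RPKM, Rgs10, known from microglia, 16.6 ± 0.768 RPKM, and Rgs12 5.89 ± 0.415 RPKM. Together they held 12.4% ± 0.497 of the RGS sum. Rgs14 averaged 10.7 RPKM with the exon union length. The RZ subfamily, with Rgs17 at 15.0 ± 0.907, Rgs20 at 7.33 ± 0.326 and Rgs19 at 6.51 ± 0.465 RPKM, held 8.78% ± 0.403. The 5 RGS genes under 1 RPKM were Rgs22, Rgs13, Rgs18, Rgs1 and Rgs21, at 0 to 0.314 RPKM, and Rgs1, Rgs13 and Rgs18 are known from blood cells.

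How far the order of levels can be read was set by the spread and by the gene length used. With the recovered length, 22 of 37 pairs of neighbours with a mean of at least 1 RPKM kept their order in all 5 libraries. These were 8 of 9 for Gα, 3 of 3 for Gβ, 5 of 10 for Gγ and 6 of 15 for RGS genes. The exception in Gα was Gnai2 and Gnaq, in order in 3 of 5 libraries. From Rgs2 to Rgs9 the RGS levels lay within 14.0 to 18.3 RPKM, and only Rgs8 and Rgs10 among those neighbours kept their order in all 5. The long plateau of RGS levels between 5.89 and 18.3 RPKM is therefore ranked only in part. With the exon union length, Gnao1 over Gnai1, Gnal over Gna11 and Gnb5 over Gnb2 held in 0 of 5 libraries. Rgs14 over Rgs8, in order in 2 of 5 with the recovered length, then also held in 0. Rgs2 over Rgs14 and Rgs19 over Rgs12 then held in all 5.

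Related genes were then set against each other within each library in 22 pairs, on the log2(RPKM + 0.1) scale. In 20 pairs the sign was the same in all 5 libraries, and the exact sign-flip test, two-sided, gave each of them p = 0.0625, which no set of 5 libraries can go below. Adjusted over the pairs by Benjamini-Hochberg it was 0.0688, so no pair could pass 0.05. Gnb2 exceeded Gnb4 16.7-fold, Rgs4 exceeded Rgs2 7.70-fold and Gnai1 exceeded Gnai3 5.55-fold. Gnaq exceeded Gna11 1.5-fold, Gnb1 exceeded Gnb2 3.34-fold and Gng3 exceeded Gng2 3.29-fold. Gna12 exceeded Gna13 2.32-fold, Gnai1 exceeded Gnai2 1.28-fold, Gng4 exceeded Gng13 1.56-fold and Rgs14 exceeded Rgs12 3.05-fold. The remaining pairs with a constant sign had log2 ratios between 0.45 and 1.27, apart from Gnal over Gnas. With exon union lengths Gnb1 to Gnb5 was 2.66 in place of 1.27, Gnao1 to Gnai2 0.26 in place of 0.96, and Rgs12 to Rgs14 -0.88 in place of -1.61. For Gnal over Gnas the log2 ratio was 3.09 ± 0.14 (SD, n = 5), but Gnas, at 5.39 RPKM, shares exons with antisense transcripts and its count is uncertain. The same ratio was 2.14 with exon union lengths and 2.15 without length.

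The exceptions were Rgs7 over Rgs9, higher in 4 of 5 libraries (exact sign-flip p = 0.25), and Rgs10 over Rgs14, higher in 1 of 5 (exact p = 0.125). The log2 ratio of Rgs7 to Rgs9 was -0.21 in library 1 and 0.11 to 0.32 in the others. That of Rgs10 to Rgs14 was -0.13 ± 0.10 (SD, n = 5), and 0.64 with exon union lengths. Rgs12 to Rgs14 was -1.61 ± 0.03 and 0.11 when CPM was used without length.

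**Figure D3:**
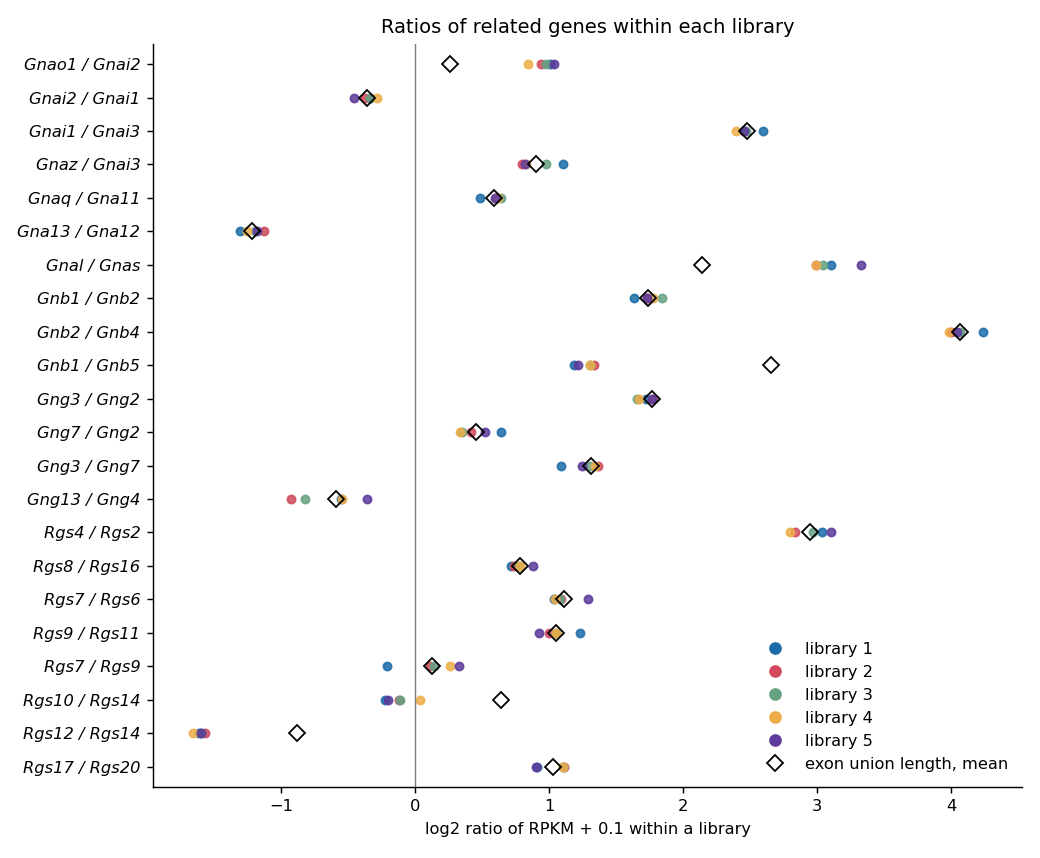
Log2 ratio of RPKM + 0.1 between 2 related genes within each library, 22 pairs, with 1 coloured point a library. Open diamonds are means with exon union lengths. Points lie on 1 side of 0 in 20 pairs, and Rgs7 to Rgs9 and Rgs10 to Rgs14 straddle it.

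Several members lie next to each other in the genome, and some neighbours differed widely in level. Within 100000 bases, 9 pairs of neighbours were found in GENCODE M21 on GRCm38. Gnaq and Gna14 lie 48298 bases apart on chromosome 19, with 23914 counts for Gnaq and 32 for Gna14 over the 5 libraries. Gna11 and Gna15 lie 4498 bases apart on chromosome 10, at 36.1 and 0.793 RPKM. Gnai3 and Gnat2 lie 5847 bases apart on chromosome 3, at 12.5 and 0.0981 RPKM, and Gng11 and Gngt1 6467 bases apart on chromosome 6, at 14.1 and 0 RPKM. Gnai2 and Gnat1 flank Slc38a3 on chromosome 9, at 54.3 and 0.117 RPKM. In 5 of the 9 pairs a gene above 10 RPKM thus stood beside a gene under 1 RPKM. Rgs9 and Gna13, 64701 bases apart on chromosome 11, were alike, at 14.0 and 13.9 RPKM. Rgs13 and Rgs1, 64923 bases apart on chromosome 1, were at 0.141 and 0.0268 RPKM. Over all 53 members, 30 were at 10 RPKM or more and 12 under 1 RPKM, and no share for other neighbouring genes was computed.

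Of the 21 RGS genes, 11 were on chromosome 1. There Rgs2, Rgs13, Rgs1, Rgs21 and Rgs18 lay in a stretch of 776 kb, from base 143999338 to base 144775435, and Rgs2 at 18.3 RPKM was the only one of these 5 above 1 RPKM. Rgs4 and Rgs5, 45663 bases apart, averaged 141 and 26.9 RPKM. Rgs8 and Rgs16, 40025 bases apart, averaged 17.8 and 10.3 RPKM.

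The promoters of the adjacent Gα pairs are shown because they differ in CpG content along with level. They are the 250 bases before the start in the RefSeq table of GRCm38.p6, Gnaq at chr19:16132434-16132683 (+), Gna14 at chr19:16435417-16435666 (+), Gna11 at chr10:81545163-81545412 (-), Gna15 at chr10:81524226-81524475 (-), 5′ to 3′ on the gene's strand, with every CG in capitals.
Gnaq: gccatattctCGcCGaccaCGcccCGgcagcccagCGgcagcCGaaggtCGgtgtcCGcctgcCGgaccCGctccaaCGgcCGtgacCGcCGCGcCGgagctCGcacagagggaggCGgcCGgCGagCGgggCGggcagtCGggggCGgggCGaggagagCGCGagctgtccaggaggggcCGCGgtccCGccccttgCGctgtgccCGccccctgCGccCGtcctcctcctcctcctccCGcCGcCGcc
Gna14: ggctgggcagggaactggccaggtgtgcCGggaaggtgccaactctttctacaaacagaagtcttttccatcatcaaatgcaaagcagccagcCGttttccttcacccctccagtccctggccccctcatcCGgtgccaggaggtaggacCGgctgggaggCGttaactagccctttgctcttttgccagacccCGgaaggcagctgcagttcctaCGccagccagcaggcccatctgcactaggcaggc
Gna11: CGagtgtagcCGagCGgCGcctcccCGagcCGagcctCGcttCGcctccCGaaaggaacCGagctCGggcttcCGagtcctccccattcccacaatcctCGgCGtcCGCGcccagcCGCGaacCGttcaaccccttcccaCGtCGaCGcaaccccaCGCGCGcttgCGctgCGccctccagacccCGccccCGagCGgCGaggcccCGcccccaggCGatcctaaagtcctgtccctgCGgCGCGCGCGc
Gna15: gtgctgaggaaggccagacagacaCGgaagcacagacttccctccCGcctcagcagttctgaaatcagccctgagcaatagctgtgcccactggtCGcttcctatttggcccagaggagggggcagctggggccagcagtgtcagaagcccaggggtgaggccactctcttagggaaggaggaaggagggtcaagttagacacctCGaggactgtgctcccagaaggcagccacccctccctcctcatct
Gnaq had 37 CG and Gna14 7, Gna11 had 38 and Gna15 4. Of the 53 members, 39 matched the table. The 28 matched genes at 5 RPKM or more had a median of 18 CG, and 22 of them had at least 10. The 4 genes at 1 to 5 RPKM had a median of 11. The 7 genes under 1 RPKM had a median of 4, and none had 10 or more. Over all 32851 promoters of the table the median was 6, with quartiles of 2 and 16. The 6 genes at 5 RPKM or more with fewer than 10 were Gng3 and Gng13 with 2 CG, Gng2 and Gnb5 with 3, Rgs5 with 4 and Rgs8 with 9. CG was counted on 1 strand, being its own reverse complement, and the counts describe these windows only.

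Whether a member varied more or less between the 5 libraries than other genes of its abundance was tested by edgeR's quasi-likelihood dispersion against its trend, with Benjamini-Hochberg adjustment over 14770 genes that passed the count filter. Of the 53 members, 42 passed it. No member was called more variable, against 0.305% of all genes, and none was called less variable, against 0% of all genes. At unadjusted p under 0.05, 3 of 42 lay in the upper tail, against 5.43% of all genes, and 2 of 42 in the lower, against 5%. limma and the DESeq2 dispersion outlier call also found 0 members. edgeR without the count filter called 2, Rgs9 (adjusted p = 0.0185) and Gng11 (adjusted p = 0.0313), among 249 genes called. That run tested every gene with any count, a larger set than the 14770, and its share over all genes was not computed. The median ratio of highest to lowest library was 1.14 over the 42 members and 1.19 over all genes tested. At 50 CPM or more, where counting error is smaller but still part of the spread, it was 1.12 for 25 members and 1.11 for 4659 genes.

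**Figure D4:**
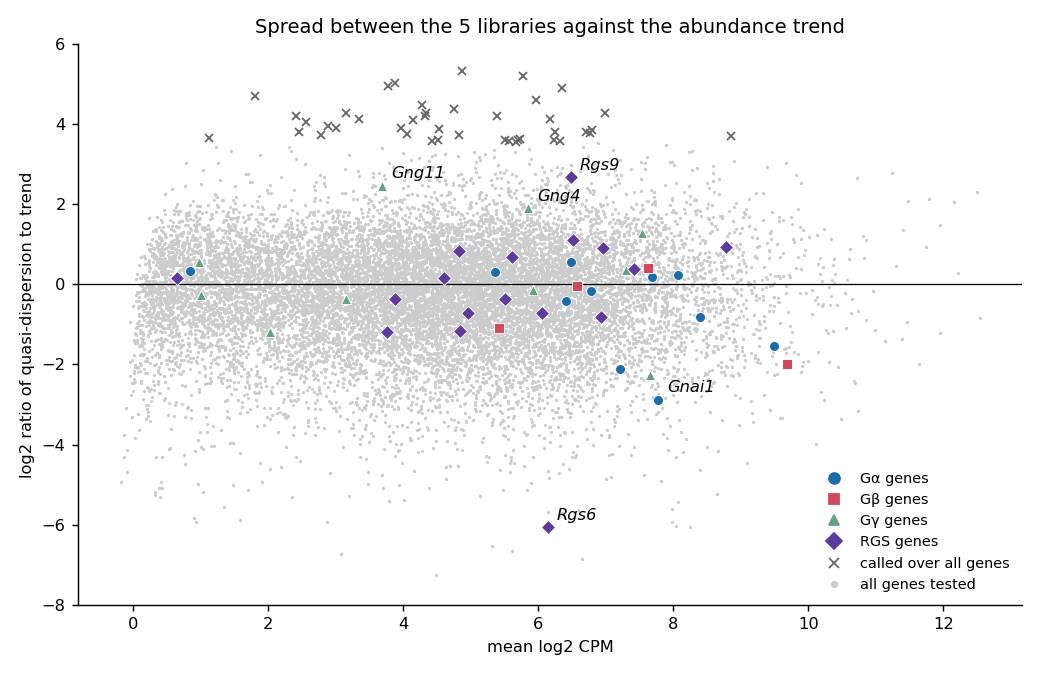
Spread between the 5 libraries, as the log2 ratio of quasi-dispersion to its abundance trend, against mean log2 CPM. Grey points are the genes tested, crosses are the 45 called more variable, and coloured symbols are the 42 members tested, with names at unadjusted p under 0.05. No member lies among the crosses, and Rgs6 lies far below the trend.

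Rgs9, an R7 protein whose long isoform is known from the striatum, had the lowest upper-tail p. It had 16.7, 14.1, 13.6, 12.1 and 13.7 RPKM, a highest to lowest ratio of 1.39 (edgeR unadjusted p = 0.00309, adjusted p = 0.302). Library 1 was high and library 4 low. Without library 1 the adjusted p was 0.990. The 9 striatal projection neuron markers summed to 437, 356, 374, 354 and 388 RPKM, all 9 above their mean in library 1, and 1 of them, the adenosine receptor gene Adora2a, was called more variable over all genes (edgeR adjusted p = 0.0444). Gng7 was likewise highest in library 1, while Gnal was highest in library 5, with 46.7, 44.2, 46.3, 46.5 and 49.5 RPKM. Rasd2, a striatal GTPase that modulates G protein signals, had 71.8, 53.7, 61.1, 58.4 and 58.5 RPKM (adjusted p = 0.227 by edgeR). The part of the striatal share in the Rgs9 values was not tested, and in bulk tissue fewer cells of a type and less RNA per cell cannot be told apart.

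Gng11, a farnesylated Gγ, was next, with 13.7, 13.1, 11.7, 19.4 and 12.5 RPKM (edgeR unadjusted p = 0.00591, adjusted p = 0.422). Library 4 alone was high. Without it the adjusted p was 0.998 and the gene lay below the trend. In library 4 the mean log2 deviation of the 7 endothelial markers was 0.03 and that of the 9 pericyte and smooth muscle markers -0.10, while it was 0.18 for the 6 oligodendrocyte markers and 0.09 for the 6 astrocyte markers. It was larger for the 4 tested cerebellar markers, at 0.39, and for the 5 red blood cell genes, at 0.28. For the 5 long nuclear RNAs taken as a sign of library quality it was -0.13. In library 3, where Gng11 was lowest, it was 0.87 for the red blood cell genes and -0.07 for the cerebellar markers. The part of these lists in the Gng11 value was not tested.

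Gng4 had 16.5, 20.3, 18.3, 18.7 and 15.5 RPKM (edgeR unadjusted p = 0.0255, adjusted p = 0.790), with library 2 highest and library 5 lowest. The mean log2 deviation of the 3 tested olfactory bulb markers was 0.43 in library 2 and -0.04 in library 5. In the same libraries it was 0.10 and -0.10 for the 6 thalamic and midbrain markers. For the 5 CA2 markers it was 0.12 and -0.19, and for the 5 habenular neuron markers 0.11 and -0.09. The 6 cortical and hippocampal excitatory neuron markers went the other way, at -0.11 and 0.10. So did the 7 glucocorticoid-induced genes, at -0.44 and 0.44, and the 6 inhibitory neuron markers, at -0.11 and 0.004. For the 5 long nuclear RNAs taken as a sign of library quality the mean log2 deviation was 0.17 and -0.003. The part of these lists, or of marker lists not given here, in the Gng4 values was not tested. At the other end stood Rgs6, with 7.0, 7.13, 7.01, 6.98 and 6.95 RPKM, a ratio of 1.01 (lower-tail unadjusted p = 0.000499, adjusted p = 0.749 by edgeR). Its coefficient of variation was 0.941%, below the 3.16% that counting alone gives at its depth. Of the 42 tested members, 7 had a coefficient of variation below that of counting alone, Rgs6 among them. Gnai1 had a lower-tail unadjusted p of 0.0334 by edgeR and an adjusted p of 0.981.

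**Figure D5:**
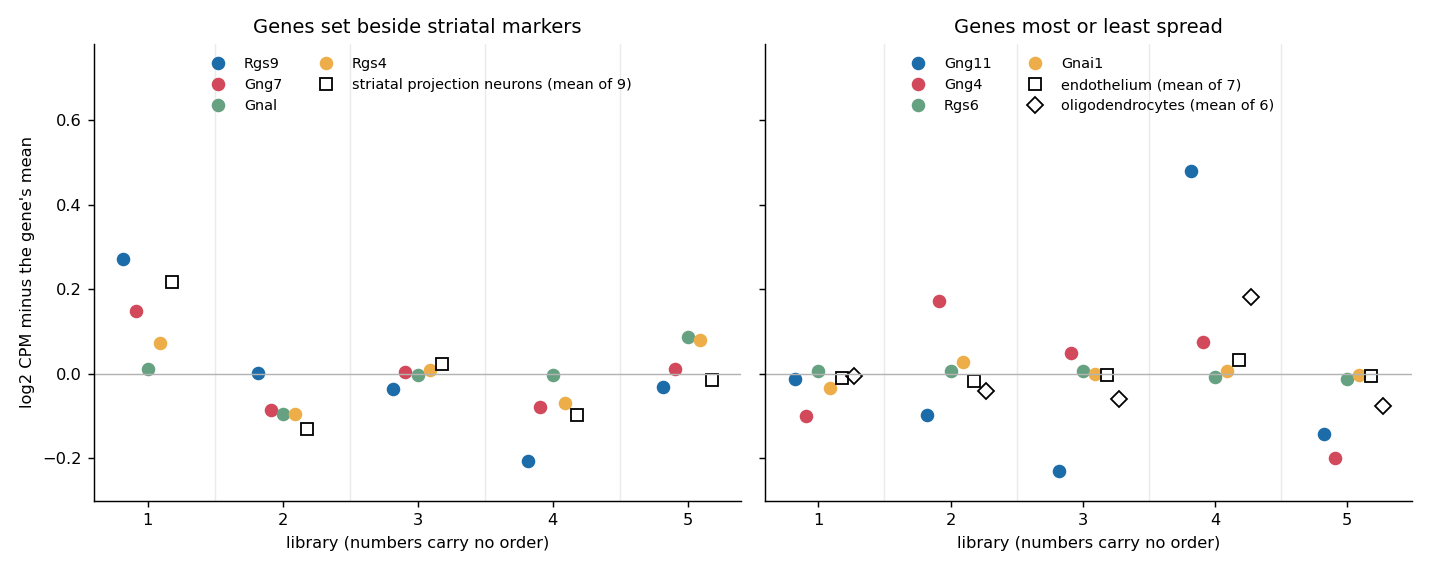
Log2 CPM of single genes minus their mean over the 5 libraries (filled circles) and the mean of the same over marker lists (open symbols), by library. Rgs9, Gng7 and the 9 striatal markers are highest in library 1 and Gnal in library 5, and Gng11 is high in library 4 alone.

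Rgs4, not called in either direction, had its libraries in the order of the cortical and hippocampal excitatory neuron markers, a likeness seen after the values were known and not tested. The 6 markers summed to 1455, 1251, 1345, 1281 and 1460 RPKM in libraries 1 to 5, beside 148, 134, 141, 135 and 149 RPKM for Rgs4. Rgs14 did not show such an order with the 5 CA2 markers, which were lowest in library 5, at 108 RPKM, where Rgs14 was highest, at 19.4 RPKM. Rgs5 was lowest in library 1, where the 9 pericyte and smooth muscle markers summed highest, at 81.2 RPKM, of which Vtn held 39.7 RPKM. There 6 of the 9 were above their own mean, Pdgfrb, Vtn, Cspg4, Acta2, Tagln and Myh11. Kcnj8, Abcc9 and Anpep were below theirs, as Rgs5 was. The highest to lowest ratio of Rgs5 was only 1.08 (edgeR upper-tail unadjusted p = 0.689).

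Partners, regulators and effectors of G proteins were taken from 6 lists that hold 58 genes of the table, of which 54 were tested. None was called more or less variable by edgeR, and the median ratio of highest to lowest library was 1.16, beside 1.19 over all genes. Among the Gα modulators, Rasd2 averaged 60.7 ± 6.76 RPKM and Gprin1, a neurite protein that binds activated Gα, 33.7 ± 0.897 RPKM (SD, n = 5 each). Among the Gβγ binders and chaperones, Cct5, a chaperonin subunit, averaged 60.0 ± 1.82 RPKM and Rack1, a Gβ-like scaffold, 32.7 ± 0.590 RPKM, and the photoreceptor protein gene Pdc was at 0 in all libraries.

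Of the receptor kinases and arrestins, which silence active receptors, Grk2 averaged 58.9 ± 2.21 RPKM and Arrb1 37.2 ± 0.848 RPKM. Among the effectors, Arhgef25, a guanine nucleotide exchange factor activated by Gq, averaged 67.6 ± 5.39 RPKM, or 40.4 RPKM with the exon union length, and Rap1gap averaged 40.0 ± 2.17 RPKM. Among other genes with an RGS domain, Snx25 averaged 15.9 ± 0.420 RPKM and Snx13 13.1 ± 0.834 RPKM.

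Summed over each class, Gα genes gave 450 ± 5.22 RPKM, Gβ genes 334 ± 5.97, Gγ genes 264 ± 4.67 and RGS genes 329 ± 7.45 RPKM (SD, n = 5 each). The Gα sum exceeded the Gβ sum, and the Gβ sum the Gγ sum, in all 5 libraries. With exon union lengths the sums were 386, 285, 267 and 321 RPKM for the Gα, Gβ, Gγ and RGS genes.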

How the data were processed

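mRNA of 5 brain libraries was measured by sequencing. The submitters' processing notes name the build GRCm38 and the tools featureCounts 1.4.6-p4, STAR 2.4.1d and CASAVA 1.7. They leave out the annotation release, the strand setting and how multiply mapped reads were treated. The authors deposited raw counts per gene and RPKM values. The deposited RPKM divided entries by the library totals in turn down the table. With a single length per gene, taken from its highest entry under those totals, 100% of 117232 values were recovered. The same length recovered 21.2% with each library's own total, a share that is low by construction and no separate test. RPKM was therefore recomputed with own totals and the recovered length.

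Spread was tested in edgeR 4.0.16 (R 4.3.3) by an intercept-only quasi-likelihood fit with filterByExpr, TMM and a robust prior, comparing each quasi-dispersion with its trend, 1-sided in each tail. On simulated data, 35 of 50 genes changed 1.5-fold in 1 library and 49 of 50 changed 2-fold were called among 14770. The simulated dispersions lay on the fitted trend without spread about it, and no gene of low abundance was changed. These counts may therefore be higher than real genes would give. limma 3.58.1 and DESeq2 1.42.0 were alternatives. Libraries of all 10 pairs differed beyond counting error. Members and lists were chosen with earlier results of these data known. Genes of at least 5 RPKM, pair members, the 3 most abundant per class, those at unadjusted p under 0.05 and the 2 most abundant per pathway list were named.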

Additional observations from a re-analysis of the deposited data

Results flagged for a closer look

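In 4 of 63 sets of 5 values, the highest or lowest library stood apart from the others by Dixon's criterion, which chance alone meets in about 1 of 20 sets. Rgs10 was low in library 1, at 15.3 RPKM against 16.8 to 17.3 RPKM in the others. Its coefficient of variation over the 5 libraries was 4.62%, below the 4.97% that counting alone gives at its depth. Its spread lay below the trend (edgeR upper-tail unadjusted p = 0.776). The mean log2 deviation of the 8 microglial markers was -0.03 in library 1 and -0.03 in library 5, with 3 of 8 above their mean in each, and their part in the Rgs10 value was not tested. Gng11 was high in library 4, at 19.4 RPKM against 11.7 to 13.7 RPKM in the others. The log2 ratio of Gnaq to Gna11 was low in library 1, at 0.48 against 0.60 to 0.64. The log2 ratio of Rgs7 to Rgs6 was high in library 5, at 1.29 against 1.03 to 1.09.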

How the results depend on the processing

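No paired analysis was possible because the study has 1 group. Without a count filter, 2 members were called more variable, Rgs9 (adjusted p = 0.0185, edgeR) and Gng11 (adjusted p = 0.0313, edgeR). In all, 249 genes were called more and 25 less variable, against 45 and 0. The setting without a filter tested a larger set of genes, so these counts are not shares of the same set. Over all genes, 19 were called without the robust prior, 10 by limma and 101 by DESeq2. Leaving out 1 library gave 18 to 44 calls, 26 without library 3 and 18 without library 5, and 0 members in each case. Gng11 turned below the trend without library 4, its adjusted p by edgeR running between 0.371 and 0.998 as each library was left out. The exon union length reversed Rgs10 to Rgs14 (log2 ratio 0.64), moved the log2 ratios of Gnb1 to Gnb5 to 2.66, Gnao1 to Gnai2 to 0.26, Gnal to Gnas to 2.14 and Rgs12 to Rgs14 to -0.88 with no change of sign, and moved the shares of Gnao1 to 16.8%, Gnb1 to 67.8% and cysteine-codon Gα genes to 52.2%. Dropping length reversed Rgs12 to Rgs14 (log2 ratio 0.11). Of 41 levels, 36 stayed within the library spread with the exon union length and 41 with the deposited RPKM. Depth limits the genes under 1 RPKM.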
